A study of Zea mays with 6 samples.

Results

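The 12-oxo-phytodienoic acid reductases 1 and 2 of maize (Zea mays), OPR1 (Zm00001d044908) and OPR2 (Zm00001d044906), were followed in leaf RNA from plants grown under different soil water regimes. They are 2 of 45953 features in the deposited table and were chosen by these same measured levels, since both stood far higher in one regime; their difference between the regimes is therefore given as a description, without a test. The table holds 8 features whose gene name or description contains 12-oxo, and the other 6 serve as context. The study sequenced 6 leaf libraries. The 3 LW libraries were made from plants under drought that were watered without interruption by negative pressure irrigation, where a reservoir below atmospheric pressure yields water to the soil by suction. The 3 CW libraries were made from drip-irrigated plants, labelled as moist soil. The mode of irrigation and the soil water therefore differed together and cannot be told apart; no label used here gives the cultivar, the plant age or whether a library pools plants.

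OPRs are flavin-dependent enzymes that reduce the ring double bond of cyclopentenone oxylipins such as 12-oxo-phytodienoic acid (OPDA), which leaves make from linolenic acid through lipoxygenase, allene oxide synthase and allene oxide cyclase. In maize, OPR7 and OPR8 are the family members known to be needed for jasmonic acid synthesis, in which reduced OPDA is then shortened by beta-oxidation in the peroxisome. OPR1 and OPR2 belong to another branch of the family, whose members in Arabidopsis act poorly on the natural OPDA isomer and are known for their response to wounding, reactive electrophiles and foreign compounds.

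Leaf libraries held leaf transcripts in both groups. Genes of a leaf marker list (chlorophyll a/b-binding proteins, Rubisco small subunits and C4 enzymes) summed to 38400 to 60970 FPKM (fragments per kilobase per 1000000 mapped fragments) in CW and 8879 to 11010 in LW, and 18 of 25 tested ones were called lower in LW, beside 2.4% of all tested genes. Here and below, called means an adjusted p under 0.05 in edgeR's test over all 24704 genes with enough counts. Zeins and glutelins of the kernel summed to 1.66 FPKM or less in every library, and genes named for pollen to 144 to 238 in CW and 209 to 487 in LW. The part of the leaf marker change in the results for the OPR genes was not tested. Estimated counts summed to between 42927751 and 64067543 in CW libraries and between 62327457 and 84084375 in LW libraries. No library pair was alike within counting noise.

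OPR1 and OPR2 were weakly expressed in moist soil and among the abundant leaf transcripts in LW. OPR1 measured 1.82, 0.73 and 3.62 FPKM in CW replicates 1, 2 and 3, and 102, 203 and 207 FPKM in LW replicates 1, 2 and 3. OPR2 measured 2.74, 1.18 and 8.16 FPKM in the CW replicates and 183, 238 and 262 FPKM in the LW replicates. For both genes every LW value lay above every CW value, a separation in the direction the genes were chosen for, which 29.6% of all tested genes also showed. CW replicate 2 was the lowest and CW replicate 3 the highest of the CW libraries for both genes, and LW replicate 1 was the lowest and LW replicate 3 the highest of the LW libraries. In bulk tissue, a change in RNA per cell cannot be told apart from a change in the number of cells that express a gene.

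**Figure D1:**
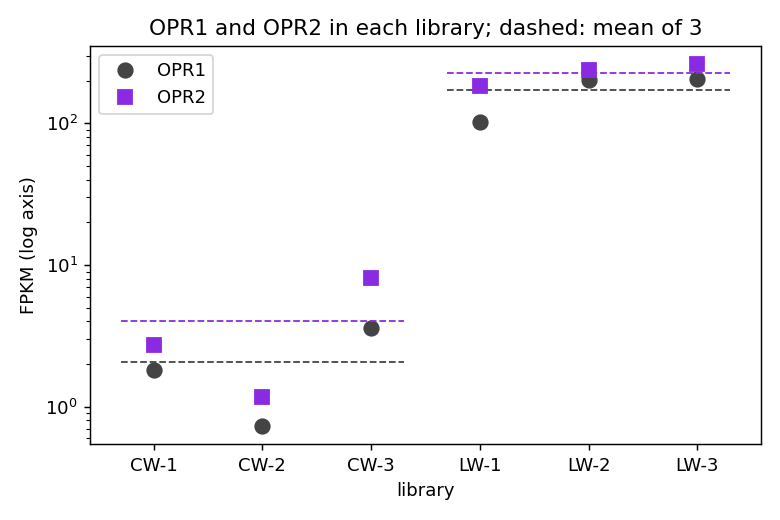
FPKM of OPR1 (circles) and OPR2 (squares) in each library on a log axis, with the mean of 3 libraries per group as a dashed line. Both genes sit between 0.73 and 8.16 FPKM in CW and between 102 and 262 FPKM in LW, and OPR2 lies above OPR1 in each library.

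As group means, OPR1 was at 2.06 ± 1.46 FPKM in CW and 171 ± 59.5 in LW, and OPR2 at 4.03 ± 3.66 and 228 ± 40.4 (mean ± SD, n = 3 each). The fitted log2 difference, on counts scaled by TMM factors (a scaling that sets most genes equal between libraries), was 6.02 (SE 0.66) for OPR1 and 5.49 (SE 0.73) for OPR2. The CW spread was wide for both genes relative to their level, since the highest of the 3 CW libraries held several times the value of the lowest. The lowest value, OPR1 in CW replicate 2, rested on 67 estimated counts, and OPR2 in that library on 105. In LW, counts ran from 11133 to 30246 for OPR1 and from 19369 to 37180 for OPR2.

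Ranked by FPKM, per length, within each library, OPR1 moved from the middle and lower part of the expressed features to the top few percent. Its position among features with a value above 0 was 15471 of 23412, 18600 of 23211 and 12466 of 25087 in CW replicates 1 to 3. In LW it was 914 of 25990, 364 of 28153 and 392 of 27653. OPR2 stood at positions 13571, 16933 and 8103 in the CW replicates and at 457, 299 and 285 in the LW replicates. By position, OPR2 thus belonged to the top 1.76% of expressed features or higher in each LW library, and to no more than the top 32.3% in any CW library. Of all estimated counts in a library, OPR2 took at most 0.00136% in CW and between 0.0311% and 0.0442% in LW.

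OPR2 was the more abundant of the pair per length in 6 of 6 libraries. The ratio of OPR2 to OPR1 in FPKM was 1.51, 1.62 and 2.25 in CW replicates 1 to 3 and 1.79, 1.17 and 1.27 in LW replicates 1 to 3. On the scale of log2(FPKM + 1), OPR2 exceeded OPR1 by 0.52 ± 0.31 (mean ± SD over 6 libraries; exact two-sided sign-flip permutation p = 0.03125, the smallest that 6 libraries can give). The ratios of the groups overlapped, with LW replicate 1 above CW replicates 1 and 2, so the balance within the pair did not separate the regimes. In estimated counts the ratio ran from 1.13 to 2.19, close to the FPKM ratio, as the genes' annotated spans of 1602 bp (OPR2) and 1648 bp (OPR1) are of similar length. Both genes are close relatives in sequence, and how the authors' counting placed reads that match both copies is not stated in the labels or the table, so the split within the pair is less certain than the sum. The sum of the pair was 4.56, 1.91 and 11.8 FPKM in the CW replicates and 285, 441 and 469 FPKM in the LW replicates.

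The pair lies on chromosome 9, in positions of the deposited table whose genome build is not stated. OPR2 spans 6893412 to 6895013 on the plus strand and OPR1 spans 6927730 to 6929377 on the minus strand, so their 3′ ends face each other across 32716 bp. The table lists 3 transcripts for each gene. A single feature lies between them, Zm00001d044907, an alpha/beta-hydrolase superfamily gene with a serine-type peptidase term, on the minus strand. In the RefSeq gene table of assembly Zm-B73-REFERENCE-NAM-5.0, opr2 and opr1 are also neighbours on chromosome 9 with 1 protein-coding gene between them.

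Apart from a kinesin-like gene, the features around the pair were low or silent. Of the 3 tested, 0 were called in edgeR, beside 2.84% of all tested genes called higher and 2.4% lower. Zm00001d044907, between the reductases, measured 0.47, 0.48 and 0.44 FPKM in the CW replicates and 0.21, 0.68 and 0.26 in the LW replicates, with overlapping groups (log2 difference -0.65, SE 0.57, adjusted p = 0.533, quasi-likelihood test in edgeR, Benjamini-Hochberg adjustment). Of the 4 features on either side of the pair and the one between, 9 in all, 4 were at 0 FPKM in all 6 libraries and 3 had enough counts to be tested. Those at 0 were the small nucleolar RNA snoZ199, Zm00001d044909, Zm00001d044910 (a 3-methyl-2-oxobutanoate hydroxymethyltransferase) and Zm00001d044911. The potassium transporter 24 gene Zm00001d044905, next to OPR2, had a value above 0 in CW replicate 2 alone, 0.35 FPKM. The magnesium transporter MRS2-2 gene Zm00001d044912 stayed at 1.46 FPKM or less. Farther out, the kinesin-like KCA2 gene Zm00001d044903 ranged from 1.96 to 12.1 FPKM in CW and from 5.82 to 10.9 in LW (adjusted p = 0.797, edgeR). The EMB1444 transcription factor gene Zm00001d044904 went from 0, 0.13 and 0.62 FPKM in CW to 2.67, 1.36 and 2.22 in LW, all above CW, with an adjusted p of 0.259 in edgeR. Of these 3 tested neighbours, 0 had an unadjusted p under 0.05 in edgeR, and 1 did in DESeq2. In edgeR 13.3% of all tested genes were higher and 11.4% lower at that threshold. In limma on log2(FPKM + 1) 2 neighbours were tested and 1, Zm00001d044904, was called higher. The other was the kinesin-like gene, whose groups overlapped. Of all genes, this limma fit called 12.6% higher and 3.21% lower.

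**Figure D2:**
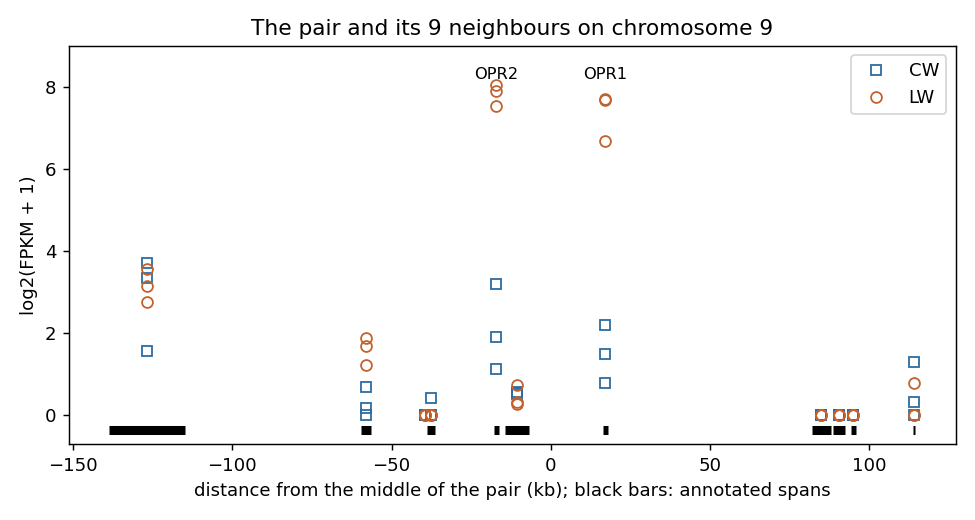
Expression as log2(FPKM + 1) of OPR1, OPR2 and their 9 nearest annotated features against distance in kilobases from the middle of the pair, with CW libraries as squares and LW libraries as circles; black bars mark annotated spans. The pair alone rises above 4 on this scale, and the feature between them stays under 1 FPKM in each library.

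Among the other 12-oxo genes, OPR3 and OPR5 rose in LW and 4 did not pass the test, against 2.84% of all tested genes called higher and 2.4% called lower. OPR5 (Zm00001d003584, chromosome 2) was at 12.5, 15.0 and 14.6 FPKM in the CW replicates and 47.2, 48.5 and 58.6 in the LW replicates. It rose 2.88-fold (log2 1.52, SE 0.23, adjusted p = 0.0242, edgeR). OPR3 (Zm00001d037182, chromosome 6) was listed at 0, 0 and 0.13 FPKM in CW, with 16 estimated counts in CW replicate 3 alone, and at 5.57, 20.8 and 12.6 FPKM in LW (adjusted p = 0.0314, edgeR). No fold is given for OPR3, because its fitted value depends on how near-zero CW counts are treated.

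OPR7 and OPR8, the members known for jasmonic acid synthesis, stood higher in each LW library than in any CW library but did not pass the test. OPR7 (Zm00001d032049, chromosome 1) measured 2.14, 0.49 and 1.06 FPKM in CW and 3.81, 8.28 and 3.33 in LW (log2 difference 1.69, SE 0.59, adjusted p = 0.130, edgeR). OPR8 (Zm00001d050107, chromosome 4) measured 9.26, 8.26 and 8.80 FPKM in CW and 19.3, 14.6 and 21.2 in LW (log2 difference 0.73, SE 0.26, adjusted p = 0.139, edgeR). With other settings OPR7 passed in DESeq2 (adjusted p = 0.0372), and OPR8 passed in limma on log2(FPKM + 1) (adjusted p = 0.0327) and with libraries scaled by their totals (adjusted p = 0.0473). DESeq2 called 9.86% of all genes higher and this limma fit 12.6%. In the limma fit and with totals, OPR8 differed by 0.97 and 1.07 on the log2 scale. The median of all genes was then 0.29 and 0.42, against 0.06 with TMM factors. Together OPR7 and OPR8 summed to 8.75 to 11.4 FPKM in CW and 22.9 to 24.5 in LW. The pair OPR1 and OPR2 thus held 0.218 to 1.195 times their sum in CW and 12.3 to 19.3 times in LW.

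OPR6 (Zm00001d040842, chromosome 3) showed no difference beyond its spread. It measured 28.7, 55.7 and 134 FPKM in CW and 70.5, 79.4 and 45.7 in LW, with overlapping groups (log2 difference -0.49, SE 0.53, adjusted p = 0.618, edgeR). Its sign depended on 1 library and on the method, being 0.24 without CW replicate 3 and 0.08 in limma on log2(FPKM + 1). Zm00001d011097, described as a 12-oxophytodienoate reductase 1 and placed on chromosome 8, stayed at 0.56 FPKM or less in each library (adjusted p = 0.705, edgeR). Over these 6 genes the median log2 difference was 1.32, against 0.06 over all tested genes. In 4 of the 6 all LW values lay above all CW values, beside 29.6% of all tested genes. The calls for OPR3 and OPR5 held without CW replicate 3, where 2 of the 6 were called beside 6.79% of all genes, and were lost without any 1 of the other 5 libraries, where 0 were called. The share of all genes called higher was then 0.696% without CW replicate 1, 0.0% without CW replicate 2, and 0.0202%, 0.0162% and 0.00405% without LW replicates 1, 2 and 3; over those 5 fits the adjusted p of OPR5 ran from 0.0658 to 0.1202 and that of OPR3 from 0.0651 to 0.1313.

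**Figure D3:**
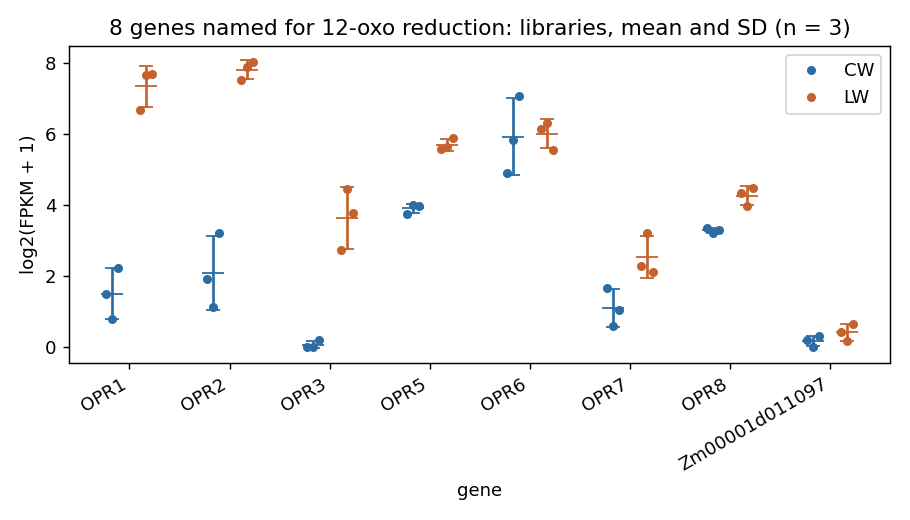
log2(FPKM + 1) of the 8 genes named for 12-oxo reduction, with a point per library and the mean and SD of 3 libraries for CW (left of each pair) and LW (right). OPR1 and OPR2 lie among the low genes in CW and at the top in LW, whereas OPR6 overlaps between groups.

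The order of the family by level differed between regimes, with OPR1 and OPR2 at the top in LW. Both were chosen for their rise in these values, so their move is a description. Among the other genes, OPR6, OPR5 and OPR8 kept their order by mean in both groups. In CW, OPR6 led at 72.8 ± 54.7 FPKM, followed by OPR5 at 14.0 ± 1.35, OPR8 at 8.77 ± 0.501, OPR2, OPR1 and OPR7 (mean ± SD, n = 3 each). Across CW libraries the ranges of OPR2 and OPR1 overlapped, though OPR2 was the higher in 3 of 3 libraries when compared within each. Those of OPR1 and OPR7 also overlapped, with OPR1 the higher in 2 of 3. In LW, OPR2 and OPR1 led with overlapping ranges, OPR2 again the higher within 3 of 3 libraries, both apart from OPR6 at 65.2 ± 17.5 FPKM. OPR6 and OPR5 at 51.4 ± 6.26 overlapped in turn, as did OPR8 at 18.4 ± 3.41 and OPR3 at 12.97 ± 7.60, and OPR3 and OPR7. Zm00001d011097 was last in LW at 0.333 ± 0.225 FPKM, and in CW it overlapped with OPR3.

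Of the summed FPKM of all 8 genes, the pair made up 7.96%, 2.35% and 6.91% in the CW replicates and 66.0%, 72.0% and 76.8% in the LW replicates. OPR6 made up 50.1% to 78.6% in CW and 7.48% to 16.3% in LW. The family as a whole summed to 57.3, 81.4 and 170.5 FPKM in the CW replicates, where OPR6 set most of the spread, and to 432, 613 and 611 FPKM in the LW replicates. These shares rest on the same values that singled out the pair and are given as a description.

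**Figure D4:**
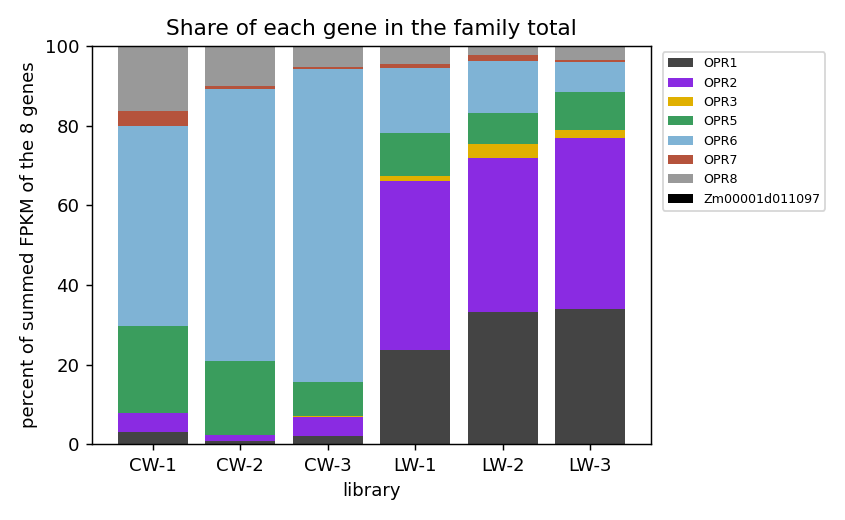
Percent of the summed FPKM of the 8 genes taken by each gene, per library. OPR6 fills 50.1% or more of each CW bar, and OPR1 with OPR2 fill 66.0% or more of each LW bar.

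CW replicate 3 was the highest CW library for OPR1, OPR2 and 3 of the other 6 family genes, 5 of 8 in all, beside 41.9% of all tested genes. Those 3 were OPR6, OPR3 and Zm00001d011097. OPR3 and Zm00001d011097 were near 0, with 16 and 19 estimated counts in CW replicate 3, the CW library with the most counts. CW replicate 3 was the highest CW library for 0 of 7 allene oxide enzymes and 5 of 13 lipoxygenases, not all of which need act before the reductases. Without CW replicate 3 the log2 difference was 6.68 for OPR1 and 6.49 for OPR2, and without CW replicate 2, the library with the lowest CW values, it was 5.63 and 5.06.

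The genes with the LW and CW profile most like that of OPR1 were OPR2 itself, a cytochrome P450, a calmodulin-binding gene and a glutathione transferase. Likeness was the root mean square distance over 6 libraries between profiles of log2(FPKM + 1), each centred on its own mean, among 20749 tested genes with a mean of at least 1 FPKM in either group. OPR2 was nearest to OPR1 at a distance of 0.285. Next came the cytochrome P450 CYP709C14 gene (Zm00001d006947) at 0.362, a gene of the IQ calmodulin-binding and BAG domain family (Zm00001d049244) at 0.420 and glutathione transferase31 (Zm00001d027557) at 0.492. For OPR2 the nearest was CYP709C14 at 0.239, before OPR1 at 0.285, glutathione transferase31 at 0.361 and a further P450 gene, 709B2 (Zm00001d006948), at 0.380. CYP709C14 measured 1.72, 1.53 and 6.40 FPKM in CW and 159, 198 and 181 in LW, so it shared the high CW replicate 3. Glutathione transferases join glutathione to reactive and foreign compounds. Glutathione transferase31 measured 2.37, 0.57 and 4.08 FPKM in CW and 180, 114 and 198 in LW, with its lowest CW value in replicate 2 like the reductases, but its lowest LW value in replicate 2 rather than replicate 1. Zm00001d049244 went from 1.55, 0.77 and 1.61 FPKM in CW to 86.8, 89.5 and 133 in LW, and 709B2 from 0.94, 0.51 and 4.16 to 78.2, 95.96 and 78.7. These are the closest of many genes that separate the groups, and the ranking is a description.

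Some genes of the pathway that makes and senses jasmonates were called higher in LW in edgeR. Of 120 genes listed for lipoxygenases, allene oxide enzymes, beta-oxidation, jasmonate signalling and the annotated alpha-linolenic acid pathway, which holds the other 6 12-oxo genes, 98 were tested, 11 rose, 0 fell and 87 did not pass. Called higher were thus 11.2% of the tested list, beside 2.84% of all tested genes. With 2.4% of all tested genes called lower, a list of this size would hold few, so 0 lower calls says little. The median log2 difference was 0.70 in the list and 0.06 over all tested genes. At an unadjusted p under 0.05, 34 of the 98 were higher and 1 lower in edgeR, beside 13.3% and 11.4% of all tested genes, and DESeq2 and limma on log2(FPKM + 1) called 29 and 31 higher and 0 lower. Of all genes, DESeq2 called 9.86% higher and 8.29% lower, and limma 12.6% and 3.21%. These lists were written with earlier results of these data known and are not independent evidence of a direction. The number of pathway genes called higher fell to 5 without CW replicate 1 and to 0 without CW replicate 2 or any 1 LW library. It was 15 without CW replicate 3. The share of all genes called higher was 0.696% without CW replicate 1, 0.0% without CW replicate 2 and 6.79% without CW replicate 3. Without any 1 LW library it was 0.0202% or less.

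Lipoxygenases add oxygen to linoleic or linolenic acid, and those listed here were taken by name. The list includes a gene described as a linoleate 9S-lipoxygenase, and not every listed lipoxygenase need lead to OPDA. Of 13 tested, 1 rose, 0 fell and 12 did not pass in edgeR, beside 2.84% of all tested genes called higher and 2.4% lower. The median log2 difference was 1.16. At an unadjusted p under 0.05 in edgeR, 4 were higher and 0 lower (13.3% and 11.4% of all tested genes). DESeq2 called 4 higher and 0 lower, beside 9.86% and 8.29% of all genes. Lipoxygenase4 (Zm00001d033624) was the one that rose, from 0.42, 0.97 and 1.12 FPKM in CW to 13.8, 8.95 and 13.4 in LW (log2 3.50, SE 0.45, adjusted p = 0.0207, edgeR). It is not among the genes of the annotated alpha-linolenic acid pathway. The most abundant, lipoxygenase10 (Zm00001d053675), measured 904, 458 and 1744 FPKM in CW and 965, 1579 and 1644 in LW, with overlapping groups (adjusted p = 0.939, edgeR).

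Allene oxide synthases and cyclases, which turn the lipoxygenase product into OPDA, had the highest median of the role lists, at 2.43 on the log2 scale over 7 tested genes. Of these, 2 rose, 0 fell and 5 did not pass in edgeR, beside 2.84% of all tested genes called higher and 2.4% lower. At an unadjusted p under 0.05 in edgeR, 6 were higher and 0 lower (13.3% and 11.4% of all tested genes). DESeq2 called 6 higher and 0 lower, beside 9.86% and 8.29% of all genes. Allene oxide cyclase 3 (Zm00001d047340) rose from 82.8, 38.1 and 33.8 FPKM in CW to 422, 170 and 478 in LW (log2 2.46, SE 0.55, adjusted p = 0.0495, edgeR). The second that rose was an allene oxide synthase gene (Zm00001d013185), picked after its values were known, from 51.0, 23.9 and 28.5 to 223, 189 and 294 FPKM (adjusted p = 0.0275, edgeR). Allene oxide synthase1 (Zm00001d048021), the most abundant that did not pass, measured 133, 57.8 and 61.7 FPKM in CW and 226, 464 and 456 in LW (adjusted p = 0.0595, edgeR).

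Downstream of the reductases, 11 tested beta-oxidation genes showed no call in either direction in edgeR. Of all tested genes 2.84% were called higher and 2.4% lower, so no call among 11 is near those shares. The median log2 difference of the 11 was -0.08. That median turned to 0.33 with libraries scaled by their totals and to 0.44 in limma on log2(FPKM + 1). At an unadjusted p under 0.05, 1 was higher and 1 lower in edgeR (13.3% and 11.4% of all tested genes). DESeq2 called 1 higher and 0 lower, beside 9.86% and 8.29% of all genes. The most abundant, a peroxisomal 3-ketoacyl-CoA thiolase 2 gene (Zm00001d018487), measured 124, 106 and 71.6 FPKM in CW and 95.9, 111 and 69.1 in LW, with overlapping groups (adjusted p = 0.395, edgeR).

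Genes of jasmonate conjugation, perception and response were taken by name or description. Some are ZIM-transcription factors described as GATA transcription factors, and not every listed gene need act in jasmonate signalling. Of 52 tested, 6 rose, 0 fell and 46 did not pass in edgeR, beside 2.84% of all tested genes called higher and 2.4% lower. The median log2 difference was 0.62. At an unadjusted p under 0.05 in edgeR, 18 were higher and 0 lower (13.3% and 11.4% of all tested genes). DESeq2 called 14 higher and 0 lower, beside 9.86% and 8.29% of all genes. ZIM-transcription factor 15 (Zm00001d005726), of the TIFY family that includes the JAZ repressors of jasmonate response, rose from 36.0, 41.0 and 51.8 FPKM in CW to 263, 114 and 189 in LW (adjusted p = 0.0466, edgeR). A jasmonate-regulated gene 21 (Zm00001d042980) was listed at 0 in all CW libraries and at 3.85, 0.91 and 3.95 FPKM in LW (adjusted p = 0.0313, edgeR). The most abundant that did not pass, ZIM-transcription factor 18 (Zm00001d033050), measured 368, 281 and 162 FPKM in CW and 478, 634 and 672 in LW (adjusted p = 0.226, edgeR). The lowest LW library varied among the pathway genes named by role. It was LW replicate 2 for ZIM-transcription factor 15, the jasmonate-regulated gene 21, allene oxide cyclase 3, the allene oxide synthase gene Zm00001d013185 and lipoxygenase4. For lipoxygenase10, allene oxide synthase1 and ZIM-transcription factor 18 it was LW replicate 1, as for OPR1 and OPR2. For the thiolase gene Zm00001d018487 it was LW replicate 3.

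**Figure D5:**
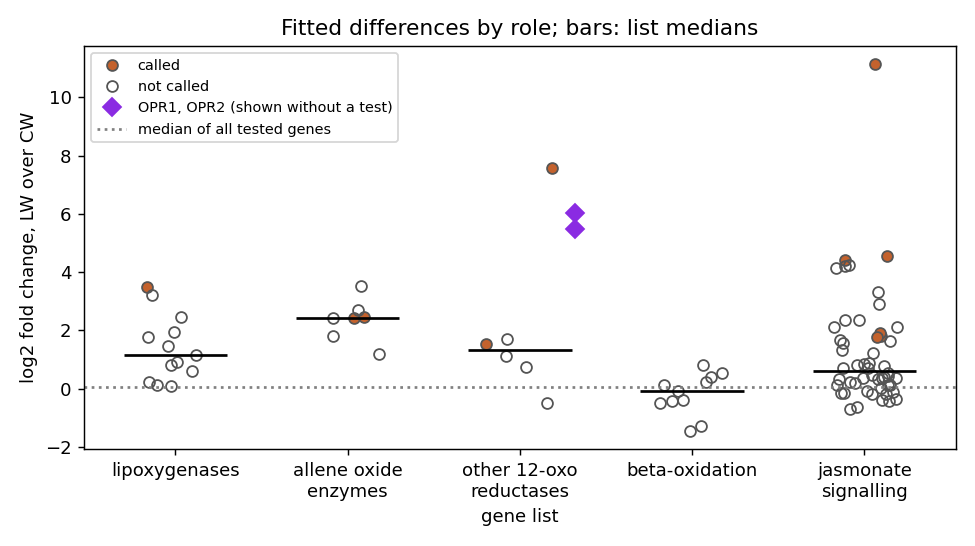
Fitted log2 differences, LW over CW, of tested genes by role, filled where called in edgeR and open where not, with bars at list medians and a dotted line at the median of all tested genes (0.06). OPR1 and OPR2 (diamonds, shown without a test) lie above each listed gene other than OPR3 and the jasmonate-regulated gene 21 at 0 in CW, whose fitted value is no bound.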

How the data were processed

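Leaf poly(A) RNA was read by paired-end Illumina sequencing, per the labels' protocols, which also mention a poly(A)- fraction. HISAT2 2.0, StringTie 1.3.4, FastQC 0.10.1 and edgeR are listed, without roles, per the submitters' processing notes; the build, annotation and use of strand are not stated. The authors deposited FPKM values and whole-number count values per feature. The deposited counts were treated as estimated counts, since 28.6% to 31.4% of values from 1 to 40 were multiples of 4. In that range 1 in 4 whole numbers is such a multiple, so the excess is small and does not show how the counts were made. Groups follow the titles; for CW replicate 2 the source name says replicate 3. Nothing in the labels says that replicates were separate plants, so p-values cover only the spread among these libraries, which may be technical.

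The counts were fitted with edgeR 4.0.16 (R 4.3.3; TMM, filterByExpr, glmQLFit and glmQLFTest, the group as the only term), which kept 24704 genes; Benjamini-Hochberg adjusted p-values under 0.05 were called. SE is the absolute log2 difference over the root of F. Levels are FPKM, which is per length. Alternatives were DESeq2 1.42.0, limma 3.58.1 on log2(FPKM + 1) and log2(FPKM + 0.1) for genes with at least 1 FPKM in 3 libraries, scaling by totals, no filter on low counts, a replicate block and leaving out each library. Scripts were tested on simulated counts. Members and lists were chosen with earlier results of these data known. Named genes are the 12-oxo genes, the 4 features on either side of the pair and the one between, the 4 closest profiles per gene, and in each role list the called gene with the highest mean FPKM, the one with the largest difference, and the most abundant uncalled one. Chi-square per degree of freedom on counts divided by 4 was 48.6 or more for each library pair.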

Additional observations from a re-analysis of the deposited data

How the results depend on the processing

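OPR1 and OPR2 were higher in LW under all 12 alternatives run, with log2 differences of 5.63 to 6.68 and 5.06 to 6.49. Both genes were chosen for this direction in these same values, so its persistence is no check of it. OPR2 exceeded OPR1 by 0.43 to 0.58 on the log2 scale when any 1 library was left out. The exact permutation test then gave p = 0.0625 each time, the smallest that 5 libraries allow. With no pseudocount and with 0.1 the difference was 0.64 and 0.62. Since OPR2 lay above OPR1 in each library, the p-values of these alternatives were fixed in advance and are no check of the result. Genes called higher and lower, 701 and 592 in edgeR, numbered 2421 and 2036 in DESeq2 and 1425 and 346 scaled by totals (share higher 80.5% against 54.2%, with the median of all genes at 0.42 against 0.06). limma called 2487 higher on log2(FPKM + 1) and 2013 on log2(FPKM + 0.1). Leaving out 1 library gave 0 to 1678 higher and 0 to 1287 lower; with 0 called, without CW replicate 2, 5062 genes had an unadjusted p under 0.05. Jasmonate pathway genes called higher, 11 in edgeR, numbered 29 in DESeq2, 19 scaled by totals, 31 and 28 in limma with pseudocounts of 1 and 0.1, and 0 to 15 with 1 library left out. Other 12-oxo genes called higher, 2 in edgeR, numbered 0 to 2 with 1 library left out. No pairing by replicate number was seen: deviations of same-numbered libraries correlated at -0.035, -0.002 and -0.251, and those of other CW and LW libraries at -0.127 to 0.195. Deviations sum to 0 within each group, so these values cannot exclude a pairing. With the replicate block 2 genes were higher and 1 lower, and 0 pathway genes and 0 other 12-oxo genes were called, while 4790 genes had an unadjusted p under 0.05. The cause of these differences between settings was not tested.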
